A study of Mus musculus with 4 samples.

Results

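Death receptors and caspases were followed across the cells of mouse islets through 7 genes chosen by symbol, *Fas*, *Tnfrsf1a*, *Casp8*, *Casp1*, *Casp4*, *Casp12* and *Xaf1*. All 7 were found among the 31053 genes counted. Islets from adult male C57BL/6 mice (C57BL6/J in the methods) were pooled and then separated into 4 samples, which were left untreated or exposed for 6 h to IL-1β alone, IFN-γ alone or both cytokines. Each sample gave 1 droplet-based single-cell library, in which every captured transcript carries a cell barcode and a unique molecular identifier (UMI). The 4 libraries thus share 1 pool of islets. Each condition had 1 library, so no difference between conditions could be held against replicates, and none was tested. The intervals given below are 95% intervals of counting error only.

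The 4 libraries held 3486 (untreated), 2911 (IL-1β), 3694 (IFN-γ) and 2480 (both) barcodes, with 50731370, 20056630, 31209339 and 25716645 UMIs. Filters on detected genes (200 to 4000) and on mitochondrial UMIs (up to 12%) left 1521, 2018, 2122 and 1810 cells, 7471 in all. Untreated cells were the deepest, with a median of 15454 UMIs against 7462.5 with IL-1β, 9615 under IFN-γ and 11123.5 under both. Pairs of libraries shared 16 barcodes in sum. A cell was called β-, α-, δ- or PP-like when insulin, glucagon, somatostatin or pancreatic polypeptide transcripts held at least 2% of its UMIs, and non-endocrine cells were named from marker genes. There were 1187, 1186, 1314 and 1284 β-like cells, 91, 366, 316 and 187 α-like cells and 64, 160, 186 and 109 δ-like cells in the order untreated, IL-1β, IFN-γ and both. The median share of UMIs was 29.3% for insulin in β-like, 15.9% for glucagon in α-like and 7.60% for somatostatin in δ-like cells. The names were given by these hormones, so the shares describe the types and do not check them. Of the marker genes listed for each type, its hormones among them, 8 of 8 were found in at least 10% of β-like cells. These counts were 7 of 7 in α-like and 4 of 5 in δ-like cells. In δ-like cells pancreatic polypeptide had a median share of 2.02%, next to that of somatostatin. Of the 7471 cells, 264 (3.53%) lay near the limit, with 1% to 4% of UMIs from the leading hormone. Levels are given as UMIs per 1000000 UMIs, both summed over the cells of a type (CPM), and a ratio is between the CPM of 2 libraries.

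FAS and the TNF receptor 1 (encoded by *Tnfrsf1a*) are death receptors, transmembrane proteins that carry a death domain in their cytoplasmic tail. Ligand binding assembles adaptors such as FADD and TRADD, which recruit and activate caspase-8, the initiator that cleaves further caspases and BID. The TNF receptor can instead signal through RIPK1, TRAF2 and cIAP proteins to NF-κB, or through RIPK3 and MLKL to necroptosis. Caspase-1 and mouse caspase-4 (also called caspase-11) are inflammatory caspases that act in inflammasomes and cleave gasdermin D, and caspase-12 is a related protein of the same gene cluster. XAF1 binds XIAP, an inhibitor of caspases. IL-1β signals to NF-κB and IFN-γ signals through the JAK-STAT pathway, and both cytokines are long known to act on β-cells in models of autoimmune diabetes.

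The genes lie on 5 chromosomes of the mouse genome (GRCm38, the sequence of mm10, in the GENCODE M21 annotation), and each is a protein-coding gene on the plus strand. *Fas* lies at chr19:34290666-34327772, *Tnfrsf1a* at chr6:125349362-125362484, *Casp8* at chr1:58795374-58847503 and *Xaf1* at chr11:72301629-72313733. *Casp1* (chr9:5298517-5307265), *Casp4* (chr9:5308828-5336783) and *Casp12* (chr9:5345430-5373032) follow one another, with 1562 bases between the first pair and 8646 between the second pair. The 3 caspases of this cluster are paralogs, and whether reads of their 3′ ends were lost or shared between them was not tested.

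Promoter windows from RefSeq (GRCm38.p6), 250 bases before to 50 after each annotated start, were found for all 7 genes and searched on both strands for 4 motifs. The stretches of *Fas*, *Casp4* and *Xaf1* are shown because *Fas* and *Casp4* had the highest ratios to untreated β-like cells with IL-1β alone and *Xaf1* with IFN-γ alone. Capitals mark the match to a motif, positions count from 0 at the annotated start, and no annotated exon overlaps the 3 upstream stretches.
*Fas*, chr19:34290506-34290634, plus strand: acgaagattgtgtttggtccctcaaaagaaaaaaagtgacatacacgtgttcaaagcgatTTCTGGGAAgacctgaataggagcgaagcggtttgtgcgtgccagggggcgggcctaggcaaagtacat
*Casp4*, chr9:5308696-5308826, plus strand: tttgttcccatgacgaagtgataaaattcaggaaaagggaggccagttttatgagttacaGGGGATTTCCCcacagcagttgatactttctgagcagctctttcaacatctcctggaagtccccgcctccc
*Xaf1*, chr11:72301552-72301628, plus strand: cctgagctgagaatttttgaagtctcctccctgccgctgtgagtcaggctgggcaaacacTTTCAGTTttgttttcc
*Xaf1*, chr11:72301632-72301655, plus strand: gtgcaaagAAACGAAActccacag
In *Fas* the capitals are the letters TTCNNNGAA of an interferon-γ-activated site at -93 to -85, which 8.3% of the 32851 promoter windows hold. In *Casp4* they are 2 overlapping matches to the NF-κB consensus at -93 to -83 from the first of its 2 annotated starts, a motif held by 4.51% of windows. In *Xaf1* they are the interferon regulatory factor letters AANNGAAA, read on the minus strand at -17 to -10 and on the plus strand at 11 to 18 just inside the transcript, which 23.9% of windows hold. The longer interferon-stimulated response element, held by 3.44% of windows, was in none of the 8 windows of the 7 genes, and the *Casp1* window held none of the 4 motifs. The letters were not particular to these genes. AANNGAAA was also found in *Fas* (first base at -130, inside the printed stretch, and at 39), *Casp8* (-171 and -108), *Casp4* (-186 and 2) and *Casp12* (-142 and 0), and TTCNNNGAA also in *Tnfrsf1a* (-244) and, at 2 positions, in *Casp12*, which was at or near no counts in β-like cells. A match describes the sequence and is not a measured binding site, and no match says only that these letters are not in this window.

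In β-like cells, *Fas* and *Casp4* went from at most 2 UMIs to at least 119 where IL-1β was present, *Casp1* was higher with either cytokine, *Tnfrsf1a* and *Casp8* were 2- to 4-fold higher where IL-1β was present, *Xaf1* was highest where IFN-γ was present, and *Casp12* stayed near no counts. A gene was counted as past 2-fold when its ratio was at least 2 or at most 0.5 and it had at least 50 UMIs over the 2 libraries. With IL-1β, 6 of the 7 genes had enough UMIs and all 6 were past 2-fold higher, beside 16.8% of 10944 genes counted in β-like cells. With IFN-γ, 3 had enough UMIs and 1 (*Xaf1*) was past 2-fold higher, beside 5.06% of 11114 genes. With both cytokines, 6 of 6 were past 2-fold higher, beside 11.1% of 11075 genes. No member was past 2-fold lower, beside 5.19%, 0.333% and 10.7% of genes for IL-1β, IFN-γ and both. *Fas*, *Casp1* and *Casp4*, 3 of the 6, had 1 to 4 untreated UMIs and reached the minimum only through the treated library, so they had to differ and their calls add nothing to the count. They fell short of the minimum with IFN-γ, which leaves out their ratios of 11.2, 12.5 and 5.58 there. These 3 comparisons share the untreated library.

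**Figure D1:**
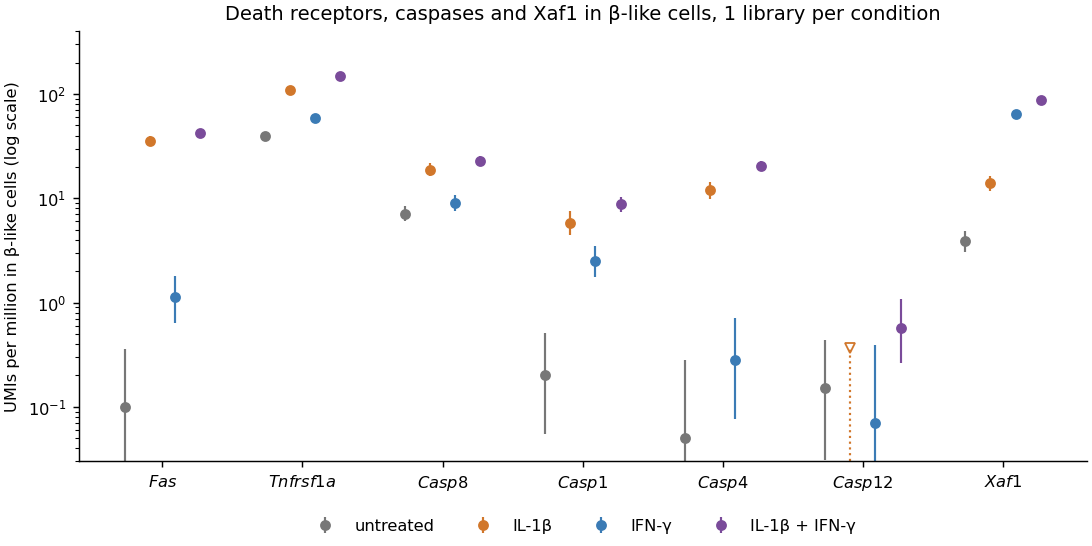
Level of the 7 genes in β-like cells in CPM (log axis), with 1 point per library and bars for the 95% interval of counting error; the open triangle is the upper limit where a library had no UMI. *Fas* and *Casp4* lie at or above 11.9 CPM in the libraries with IL-1β and at or below 1.12 CPM in those without it, and *Xaf1* is highest in the libraries with IFN-γ.

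*Fas* in β-like cells had 2, 357, 16 and 668 UMIs without cytokine, under IL-1β, under IFN-γ and under both. These counts gave 0.10, 35.7, 1.12 and 42.6 CPM. The libraries with IL-1β were thus high, the IFN-γ library was low but above the untreated one, and the intervals of the untreated and IFN-γ libraries did not overlap. Relative to untreated, IL-1β gave a ratio of 356 (97.7 to 2948), IFN-γ 11.2 (2.62 to 100) and the combination 425 (117 to 3514), all resting on 2 untreated UMIs. Both cytokines against IL-1β alone gave 1.19 (1.05 to 1.36), a smaller step. A *Fas* UMI was found in 0.168% of untreated, 21.8% of IL-1β, 1.14% of IFN-γ and 35.2% of doubly treated β-like cells. After thinning each cell to 4000 UMIs these shares were 0.0878%, 12.5%, 0.321% and 13.9%, so that the shares in the 2 libraries with IL-1β lay closer together at equal depth.

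*Fas* was also higher with IL-1β in α-like cells, which started from a higher untreated level. Their levels were 10.5 CPM (10 UMIs), 66.6, 25.2 and 106 CPM in the order untreated, IL-1β, IFN-γ and both. The untreated α-like level was 104 times that in untreated β-like cells (22.2 to 980), where 0.0958 UMIs would be expected in the α-like cells at the β-like level. All 10 UMIs were lost when cells were thinned to 4000 UMIs, so that share (0 of 86 cells) allows up to 3.49%. Against untreated α-like cells the ratio was 6.36 (3.38 to 13.5) for IL-1β, 2.40 (1.23 to 5.25) for IFN-γ and 10.1 (5.38 to 21.5) for the combination. With IFN-γ alone α-like cells held 22.5 times the β-like level (12.9 to 41.6), with IL-1β 1.87 times (1.55 to 2.25) and with both cytokines 2.49 times (2.10 to 2.93). The 2 cell types thus lay closer together in the libraries with IL-1β.

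In δ-like cells *Fas* had 0, 24, 6 and 49 UMIs, or 29.0 CPM with IL-1β, 4.44 under IFN-γ and 67.1 under both. Taking 3 UMIs as the floor for the untreated library, the level was at least 5.27-fold higher with IL-1β and at least 12.2-fold higher with both. Outside the endocrine cells, endothelial-like cells held 48.8 CPM untreated and 122 CPM with IFN-γ, from 10 and 35 UMIs. Macrophage-like cells stayed at 3.31 to 15 CPM, from at most 5 UMIs per library, and acinar-like cells had none. In the library with both cytokines, neighbours in the order mesenchymal-, ductal-, α-, endothelial-, PP- and δ-like overlapped in their intervals, from 161 CPM down to 67.1 CPM. β-like cells followed at 42.6 CPM, apart from δ-like cells above and macrophage-like cells below.

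*Tnfrsf1a* was the receptor detected in every cell type and every library. In β-like cells its level was 39.2 CPM untreated, 110 with IL-1β, 58.3 under IFN-γ and 149 under both, from 782 to 2341 UMIs. The 4 intervals did not overlap, and the order was untreated, IFN-γ, IL-1β, both. Against untreated the ratios were 2.80 (2.55 to 3.07), 1.48 (1.35 to 1.64) and 3.81 (3.51 to 4.13) for IL-1β, IFN-γ and both. With the hormone genes left out of the totals, the IL-1β ratio of *Tnfrsf1a* stood at 1.05 on the log2 scale, just past 2-fold. At 4000 UMIs per cell a *Tnfrsf1a* UMI was found in 13.7%, 34.0%, 20.6% and 41.7% of β-like cells, and unthinned in 43.3%, 54.1%, 40.3% and 73.1%.

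In the untreated library α-like cells held 49.2 CPM and δ-like cells 55.0 CPM of *Tnfrsf1a*, 1.25 times (0.914 to 1.68) and 1.40 times (0.940 to 2.02) the β-like level, and both intervals included 1. α-like cells reached 74.7, 51.5 and 122 CPM with IL-1β, IFN-γ and both, and δ-like cells 110, 66.6 and 268 CPM. With both cytokines δ-like cells held 1.80 times the β-like level (1.54 to 2.08), and α-like cells 0.814 times (0.703 to 0.937). The ratio of both to IL-1β was 2.44 (1.89 to 3.16) in δ-like cells and 1.36 (1.26 to 1.46) in β-like cells. Endothelial-like cells were above β-like cells in every library, at 234, 263, 428 and 435 CPM.

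*Casp8*, the initiator caspase of the death receptors, was lower than 25 CPM in β-like cells throughout. It stood at 7.12 CPM untreated, 18.8 with IL-1β, 9.02 under IFN-γ and 23.0 under both, from 129 to 360 UMIs. The libraries with IL-1β were high, those without it low, and the untreated and IFN-γ intervals overlapped. That was 2.64 times untreated (2.11 to 3.30) for IL-1β, 1.27 times (0.990 to 1.62) for IFN-γ and 3.22 times (2.65 to 3.94) for both. The IL-1β ratio fell under 2-fold when the hormone genes were left out of the totals (0.96 on the log2 scale) and when each cell was given equal weight (0.95). α-like cells had 7, 45, 34 and 29 *Casp8* UMIs and δ-like cells 9, 33, 30 and 23. With IL-1β the ratio was 2.36 (1.06 to 6.21) in α-like and 2.42 (1.13 to 5.74) in δ-like cells, while the intervals for both cytokines included 1. Macrophage-, endothelial- and ductal-like cells held more *Casp8* than β-like cells in every library, for instance 59.6, 48.8 and 69.9 CPM untreated.

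*Casp1*, which processes pro-IL-1β and pro-IL-18, was found in β-like but in no other endocrine cells. β-like cells held 4, 58, 36 and 138 *Casp1* UMIs, or 0.201, 5.80, 2.52 and 8.80 CPM. Each single cytokine gave a level above the untreated interval, and the combination was highest. Against the 4 untreated UMIs the ratio was 28.9 (10.7 to 110) for IL-1β, 12.5 (4.5 to 48.5) for IFN-γ and 43.9 (16.8 to 163) for both, and both against IL-1β gave 1.52 (1.11 to 2.10). The IFN-γ comparison had under 50 UMIs and so was not among those counted above. A *Casp1* UMI was found in 0.337%, 3.79%, 2.59% and 7.55% of β-like cells, and in 0.176%, 1.90%, 1.2% and 3.21% at 4000 UMIs per cell.

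α-, δ- and PP-like cells had no *Casp1* UMI in any of the 4 libraries. In α-like cells that was 0 of 366 cells with IL-1β, which allows a share of up to 0.820%, and 0 of 187 with both, which allows up to 1.60%. At the β-like level, 15.1 UMIs would be expected in the α-like cells with IL-1β and 15.3 with both, and 4.80 and 6.43 in the δ-like cells. With the floor of 3 UMIs, the α-like level was at most 0.199 times the β-like level with IL-1β and at most 0.196 times with both. There were 25 to 59 PP-like cells per library.

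Macrophages express *Casp1*, and their RNA could enter the droplets of β-like cells, so the macrophage markers were read beside it. Macrophage-like cells held 59.6, 66.9, 135 and 143 CPM of *Casp1*. Of the 12 markers in the list, 10, 8, 10 and 10 had a UMI in β-like cells, with a summed level of 74.6, 52.3, 48.3 and 148 CPM, most of it *C1qa* (69.1, 35.7, 39.8 and 135 CPM). *Adgre1* was at 0 in all 4 libraries. *Tyrobp*, a defining marker, had 3, 1, 3 and 2 UMIs in β-like cells, which was 0.00516%, 0.00398%, 0.00807% and 0.00406% of its macrophage-like level. The same percentages were 1.96%, 1.43%, 0.989% and 2.38% for *C1qa* and 0.163%, 0.989%, 0.419% and 0.491% for *Cd68*, so the markers differed widely among themselves. Each other marker of the list was at or under 0.252% (*Cd14* with both cytokines) in each library. *C1qb* was at most 0.0108% and *C1qc* at most 0.0133%. *Casp1* in β-like cells was at 0.337%, 8.66%, 1.86% and 6.18% of its macrophage-like level, under *C1qa* in the untreated library and above it in the other 3. It was above each marker other than *C1qa* in all 4 libraries. The part of macrophage RNA in these *Casp1* counts was not tested. Among β-like cells with both cytokines, 6.19% of those with a *Casp1* UMI and 7.50% of those without had UMIs of at least 2 macrophage markers. With IL-1β these shares were 4.44% and 2.10%.

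*Casp4*, which senses cytosolic lipopolysaccharide, followed IL-1β in β-like cells. It had 1, 119, 4 and 323 UMIs in the 4 libraries, or 0.0502, 11.9, 0.280 and 20.6 CPM. The 2 libraries with IL-1β were high, and the intervals of the untreated and IFN-γ libraries overlapped. The ratio to untreated was 237 (41.7 to 9443) for IL-1β and 411 (73.2 to 16271) with both, resting on 1 untreated UMI, and with IFN-γ the interval included 1. Both against IL-1β gave 1.73 (1.40 to 2.16), which passed 2-fold only when the hormone genes were left out of the totals (1.03 on the log2 scale). The share of β-like cells with a UMI was 0.0842%, 8.09%, 0.304% and 17.6%, and at 4000 UMIs per cell 0%, 4.71%, 0.160% and 7.53%, where 0 of 1139 untreated cells allow up to 0.263%.

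α-like cells had 0, 8, 0 and 12 *Casp4* UMIs and δ-like cells 0, 2, 0 and 4. With IL-1β the α-like level was 0.259 times the β-like level (0.109 to 0.527), and with both cytokines 0.335 times (0.172 to 0.594). The δ-like level with both was 0.266 times (0.0720 to 0.687). In the 2 libraries with IL-1β *Casp4* was thus lower in α- and δ-like cells than in β-like cells, while the counts of the untreated and IFN-γ libraries were too few to compare. Macrophage-like cells held 16.6, 43.0, 168 and 131 CPM of *Casp4*, and there the IFN-γ interval lay above that of IL-1β. Endothelial-like cells held 4.88, 51.2, 104 and 161 CPM, with overlapping intervals for the single cytokines. Ductal-like cells held 79.9 CPM untreated and 170 CPM with both, from 8 and 15 UMIs.

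*Casp12* was near no counts in the endocrine cells. β-like cells had 3, 0, 1 and 9 UMIs in 10003755 to 19931882 UMIs per library, and 0 of 1186 cells with IL-1β, which allows a share of up to 0.253%. The ratio of both cytokines to untreated was 3.81 with an interval from 0.952 to 21.9, and it turned to -0.71 on the log2 scale when each cell was given equal weight. α-like cells had 3 UMIs, all with both cytokines, and δ- and PP-like cells had none. Ductal-like cells held 69.9, 64.5, 134 and 79.2 CPM from 7, 7, 32 and 7 UMIs, above β-like cells in each library, by 464-fold (106 to 2782) untreated and 138-fold (43.7 to 417) with both. Endothelial-like cells had 0 UMIs untreated and with IL-1β and 11 and 10 UMIs with IFN-γ and both (38.3 and 48.9 CPM). The ductal-like cells number 11 to 24 per library, which limits these values.

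*Xaf1* was the member highest where IFN-γ was present. In β-like cells it stood at 3.86 CPM untreated (77 UMIs), 14.0 with IL-1β, 64.5 under IFN-γ and 87.3 under both (1369 UMIs), and no 2 intervals overlapped. IL-1β gave a ratio to untreated of 3.62 (2.72 to 4.85), IFN-γ one of 16.7 (13.2 to 21.3) and the combination one of 22.6 (18.0 to 28.8). Both against IL-1β gave 6.24 (5.24 to 7.48), and both against IFN-γ gave 1.35 (1.25 to 1.47). *Xaf1* was the only member past 2-fold higher when IFN-γ was added to IL-1β (1 of 6 with enough UMIs, beside 2.43% of 10596 genes higher and 6.85% lower), and the only one not past it when IL-1β was added to IFN-γ (5 of 6, beside 5.58% of 10960 genes higher and 14% lower). In the latter, *Fas* and *Casp4*, with 16 and 4 UMIs under IFN-γ, reached the minimum through the library with both. A *Xaf1* UMI was found in 5.81%, 9.87%, 46.1% and 58.5% of β-like cells, and in 1.23%, 5.25%, 21.2% and 28.3% at 4000 UMIs per cell.

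In α-like cells *Xaf1* stood at 8.38, 6.93, 87.1 and 79.5 CPM. The IL-1β library did not differ from the untreated one beyond counting error (ratio 0.828, interval 0.342 to 2.20), and its level was 0.495 times the β-like one in that library (0.285 to 0.812). Adding IL-1β to IFN-γ gave 0.912 (0.733 to 1.13). In δ-like cells *Xaf1* stood at 11, 14.5, 99.1 and 192 CPM, and adding IL-1β to IFN-γ gave 1.93 (1.51 to 2.47). The δ-like level with both was 2.19 times (1.83 to 2.61) the β-like level. In endothelial-, macrophage- and ductal-like cells *Xaf1* was at 205, 177 and 218 CPM with IFN-γ, 3.18, 2.75 and 3.38 times the β-like level. Ductal-like cells had no *Xaf1* UMI without IFN-γ, which allows up to 36.8 CPM untreated and 34.0 CPM with IL-1β. At the β-like level only 0.387 and 1.52 UMIs would be expected in these cells.

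**Figure D2:**
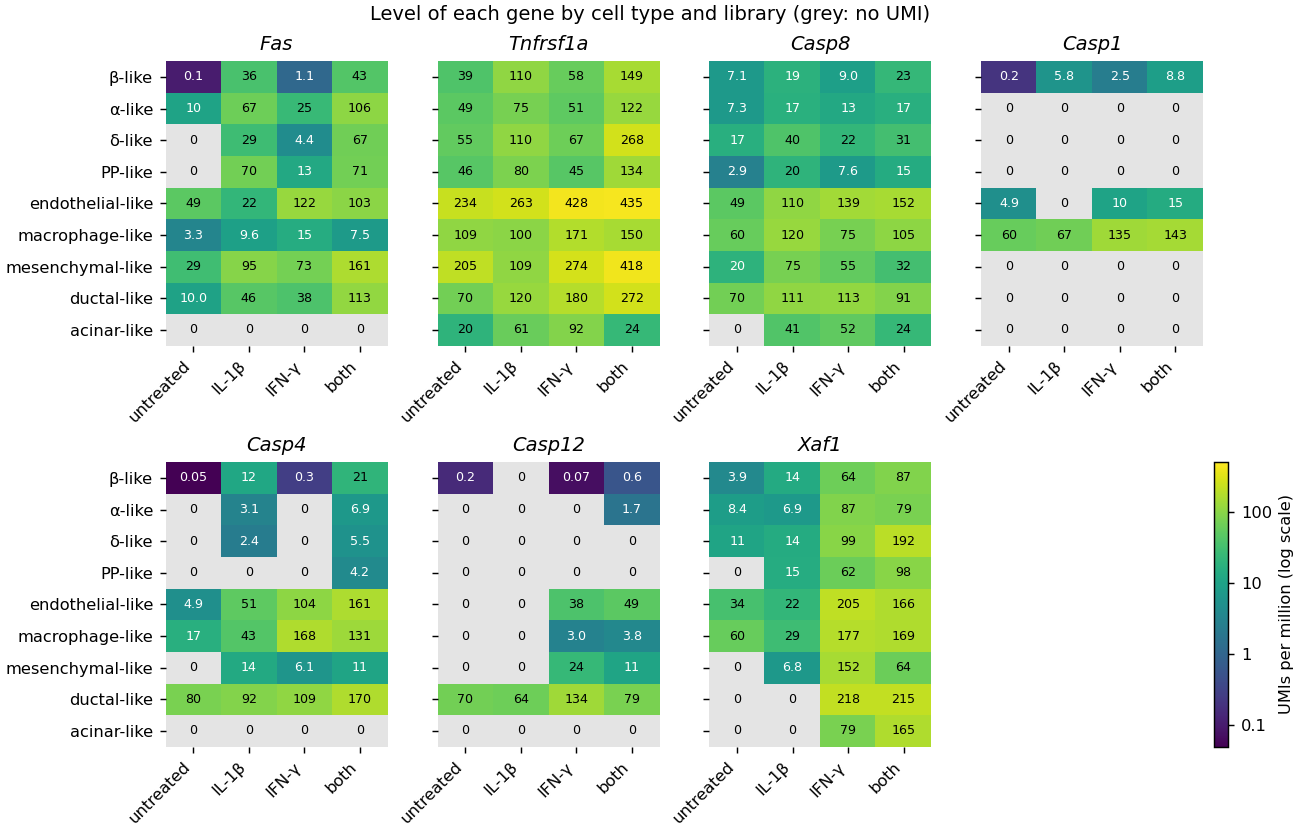
Level of each gene in CPM (colour on a log scale, number in each cell of the grid) by cell type (rows) and library (columns), with grey for no UMI. *Casp1* is found in macrophage-, β- and endothelial-like cells, *Casp12* mainly in ductal-like cells, and *Xaf1* is higher with IFN-γ and with both cytokines in each type than without treatment.

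With the rule of 50 UMIs, fewer members could be counted in the smaller cell types. In α-like cells 2 of 3 were past 2-fold higher with IL-1β (*Fas* and *Casp8*, beside 8.49% of 6946 genes), 2 of 3 with IFN-γ (*Fas* and *Xaf1*, beside 4.54% of 7218) and 3 of 3 with both (*Fas*, *Tnfrsf1a* and *Xaf1*, beside 10.1% of 5937). In δ-like cells the counts were 0 of 1 with IL-1β (*Tnfrsf1a* at 2.0 after rounding and just under the limit, beside 9.37% of 4164), 1 of 2 with IFN-γ (*Xaf1*, beside 3.74% of 5217) and 2 of 2 with both (*Tnfrsf1a* and *Xaf1*, beside 13.8% of 3783). In α-like cells both cytokines against IL-1β gave 1 of 4 (*Xaf1*, beside 3.28%), and against IFN-γ 2 of 4 (*Fas* and *Tnfrsf1a*, beside 5.54%). In δ-like cells these counts were 3 of 4 (*Fas*, *Tnfrsf1a* and *Xaf1*, beside 6.07%) and 2 of 4 (*Fas* and *Tnfrsf1a*, beside 8.61%). No member was past 2-fold lower in either type, beside 5.79%, 0.901%, 8.66%, 4.23% and 12.9% of genes in the 5 comparisons of α-like cells and 5.76%, 1.34%, 10.7%, 6.07% and 11.6% in those of δ-like cells. Here too *Fas*, *Casp8* and *Xaf1* in α-like cells (10, 7 and 8 untreated UMIs) and *Xaf1* in δ-like cells (6) reached the minimum mainly through the treated library. *Xaf1* against IL-1β in both types, and *Fas* against either single cytokine in δ-like cells, reached it mainly through the library with both cytokines. These calls therefore add nothing to the counts. The members left out are those with few UMIs and not those without a difference, as the δ-like counts of *Fas* show.

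**Figure D3:**
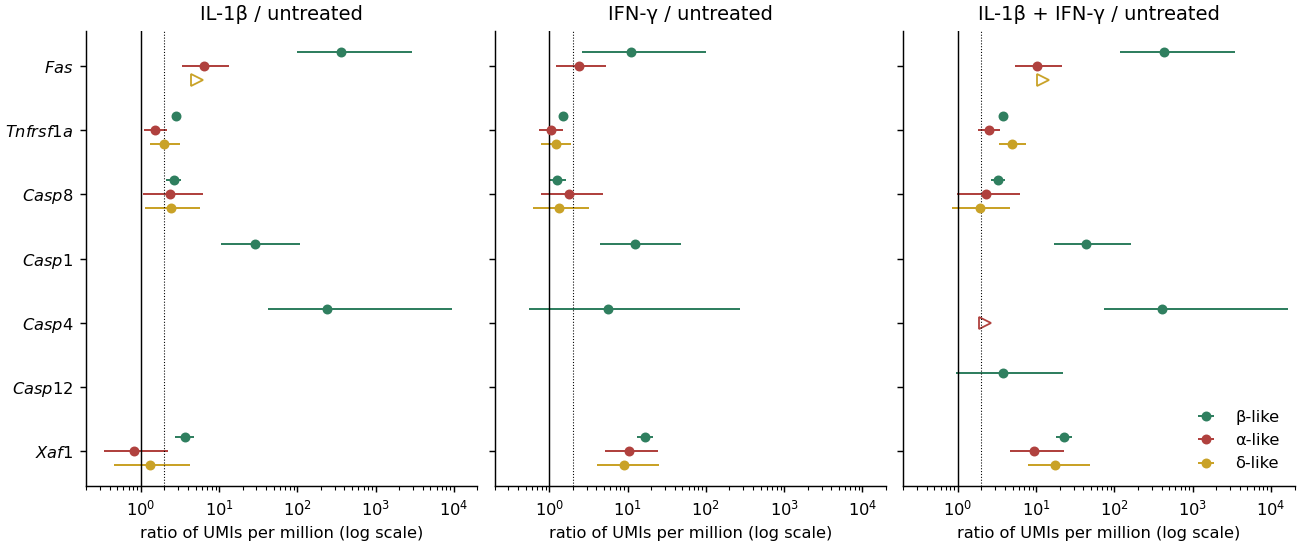
Ratio of each treated library to the untreated one (log axis) for β-, α- and δ-like cells, with 95% intervals of counting error; open triangles are lower bounds against 0 untreated UMIs with a floor of 3 UMIs, and the dotted line marks 2-fold. *Fas* with IL-1β lies at 356 in β-like and 6.36 in α-like cells, whereas the 3 types overlap for *Casp8*.

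Depth was unequal between libraries and the insulin transcripts held a large share of UMIs, so the members were also read per cell at equal depth and against another total. Leaving the hormone genes out of the totals moved the median log2 ratio of all genes in β-like cells from 0.37 to -0.07 with IL-1β, from 0.31 to 0.0028 with IFN-γ and from 0.02 to -0.18 with both. It also moved the split of all genes past 2-fold, from 1838 higher and 568 lower to 801 and 1229 with IL-1β, from 562 and 37 to 307 and 142 with IFN-γ, and from 1232 and 1183 to 979 and 1661 with both. Adding IFN-γ to IL-1β gave 257 higher and 726 lower in β-like cells, or 369 and 302 on the other total. All 6 members stayed higher than untreated with IL-1β and with both cytokines. *Casp8* with IL-1β was the single call lost among those of the members in β-like cells.

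**Figure D4:**
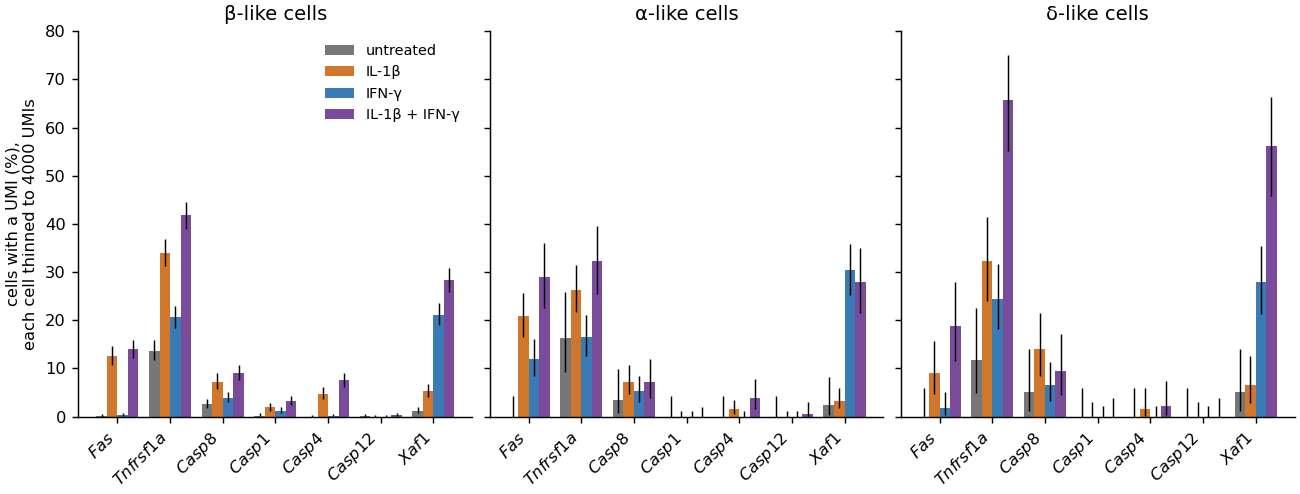
Share of β-, α- and δ-like cells with at least 1 UMI of each gene after thinning each cell to 4000 UMIs, with 1 bar per library and exact binomial 95% intervals. *Tnfrsf1a* with both cytokines is found in 41.7% of β-like, 32.2% of α-like and 65.6% of δ-like cells, and *Casp1* in no α- or δ-like cell.

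Of β-like cells thinned to 4000 UMIs, 17.4% of untreated, 51.3% of IL-1β, 40.1% of IFN-γ and 69.4% of doubly treated cells had a UMI of any of the 7 genes. At the same depth and with both cytokines, the 745 β-like cells with a UMI of *Nos2*, the gene of inducible nitric oxide synthase, held *Xaf1* in 32.1% (28.7% to 35.6%) and *Tnfrsf1a* in 45.4% of cells, against 22.7% (19.1% to 26.6%) and 36.4% of the 503 cells without one. The intervals of the other 5 genes overlapped between these cells. With IL-1β alone the intervals of all 7 genes overlapped, for instance *Xaf1* at 5.62% and 5.15% and *Casp4* at 4.02% and 4.91% of cells with and without a *Nos2* UMI. Among β-like cells with both cytokines, the 83 cells with at least 10 *Hspa1a* UMIs per 10000, a heat shock transcript, held 73.8 CPM of *Tnfrsf1a* and 5.35 of *Casp8*, against 154 and 24.1 in the other 1201 cells. *Casp1*, *Casp4* and *Xaf1* were also lower there with intervals apart, while those of *Casp12* and of *Fas* (33.1 and 43.2 CPM) overlapped. In the IL-1β library the intervals lay apart for *Tnfrsf1a* and *Casp4*, in the IFN-γ library for *Xaf1* alone, and in the untreated library, with 20 such cells, for none (*Tnfrsf1a* at 47.2 and 39.1 CPM).

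The other genes of the pathway were counted from a list of 51 genes, 50 of which were in the files. In β-like cells with IL-1β, 35 had enough UMIs, 15 were past 2-fold higher and 1 lower, beside 16.8% and 5.19% of all genes, with a median log2 ratio of 0.81 beside 0.37 for all genes. With IFN-γ, 8 of 35 were higher and 0 lower, beside 5.06% and 0.333% (median 0.60 beside 0.31), and with both, 17 of 37 were higher and 1 lower, beside 11.1% and 10.7% (median 0.90 beside 0.02). *Mlkl* (18 untreated UMIs) with each treatment, and *Tnf* and *Tnfrsf1b* (1 and 4) with both, reached the minimum mainly through the treated library. So did *Gsdmd* (31 untreated UMIs) with IL-1β. These genes had to differ, so their calls add nothing to these counts, and their ratios also enter the medians. Without the hormone genes in the totals, *Casp2*, *Gsdme*, *Ripk1*, *Tnfrsf21*, *Traf2* and *Xiap* fell under 2-fold with IL-1β, *Apaf1* and *Casp2* with IFN-γ, and *Cflar* with both.

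Among the ligands, *Fasl*, the ligand of FAS, had 1 UMI in all β-like cells of the 4 libraries. *Tnf* had 1 UMI untreated, 37 with IL-1β, 0 under IFN-γ and 74 under both, which gave a ratio of 94.1 (16.4 to 3766) with both. *Tnfsf10*, which encodes TRAIL, stood at 3.46, 16.9, 122 and 79.3 CPM in the same order. That single *Fasl* UMI was in the library with both cytokines, and most *Tnf* UMIs were in the 2 libraries in which *Tnfrsf1a* was highest. Of the other receptors, *Tnfrsf1b*, which encodes TNF receptor 2, had 4, 13, 7 and 55 UMIs, and *Tnfrsf21*, which encodes death receptor 6, was 2.06-fold (1.71 to 2.49) above untreated with IL-1β and 0.944-fold (0.768 to 1.16) with both.

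Of the 9 adaptors and kinases, 8 had enough UMIs, and 3, 1 and 4 were past 2-fold higher with IL-1β, IFN-γ and both, beside 16.8%, 5.06% and 11.1% of all genes. *Ripk1* stood at 18.3 CPM untreated, 41.0 with IL-1β, 36.2 under IFN-γ and 76.6 under both. *Mlkl*, the effector of necroptosis, stood at 0.903, 7.70, 14.7 and 29.3 CPM. It is the 1 gene counted with IFN-γ and is counted in the other comparisons too. With 18 untreated UMIs it reached the minimum mainly through the treated library, so its calls add nothing to these counts. *Traf2* and *Daxx* were 3.07-fold (2.40 to 3.94) and 3.56-fold (3.02 to 4.21) above untreated with both cytokines. The adaptors *Fadd* and *Tradd* were not past 2-fold in any of the 3 comparisons. *Fadd* was at 0.926, 0.966 and 0.714 times and *Tradd* at 1.39, 1.28 and 1.24 times untreated.

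Of the 6 inhibitor of apoptosis genes and their antagonists, all with enough UMIs, 2 (*Birc3* and *Xiap*) were past 2-fold higher with IL-1β, 0 with IFN-γ and 1 (*Birc3*) with both, beside the same 16.8%, 5.06% and 11.1% of all genes, and the others did not pass. *Birc3*, which encodes cIAP2, stood at 4.42 CPM untreated and 199 with IL-1β, 8.39 under IFN-γ and 202 under both, a ratio of 45.8 (37.1 to 57.3) with both. *Cflar*, the inhibitor of caspase-8, stood at 52.9, 92.3, 84.3 and 113 CPM and was past 2-fold with both alone. *Xiap*, the target of XAF1, was 2.67-fold (2.36 to 3.02) above untreated with IL-1β, 1.69-fold (1.49 to 1.92) with IFN-γ and 1.87-fold (1.65 to 2.11) with both.

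*Casp2*, another initiator caspase, was 2.31-, 2.06- and 2.78-fold above untreated with IL-1β, IFN-γ and both. *Bid*, which caspase-8 cleaves to reach the mitochondria, stood at 2.16, 14.9, 5.52 and 17.0 CPM, and *Apaf1*, the scaffold of the apoptosome, at 2.01, 8.50, 4.06 and 11.5 CPM. *Gsdmd*, the substrate of caspase-1 and caspase-4 that forms membrane pores, stood at 1.56, 8.70, 5.45 and 26.2 CPM, while *Gsdme*, another gasdermin, was 2.50-, 1.95- and 1.42-fold above untreated.

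*Il1b*, a substrate of caspase-1, had 125, 187, 293 and 448 UMIs in β-like cells, or 6.27, 18.7, 20.5 and 28.6 CPM, beside 16.6, 994, 27.0 and 143 CPM in macrophage-like cells. *Dffb*, the caspase-activated DNase, was the only gene of the list past 2-fold lower than untreated (without the hormone genes in the totals *Cradd* joined it with IL-1β and *Casp9* with both), at 0.484 times (0.338 to 0.679) untreated with IL-1β and 0.366 times (0.263 to 0.503) with both. *Lmna*, which encodes lamin A and C, was 2.39-fold (2.22 to 2.57) above untreated with both.

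**Figure D5:**
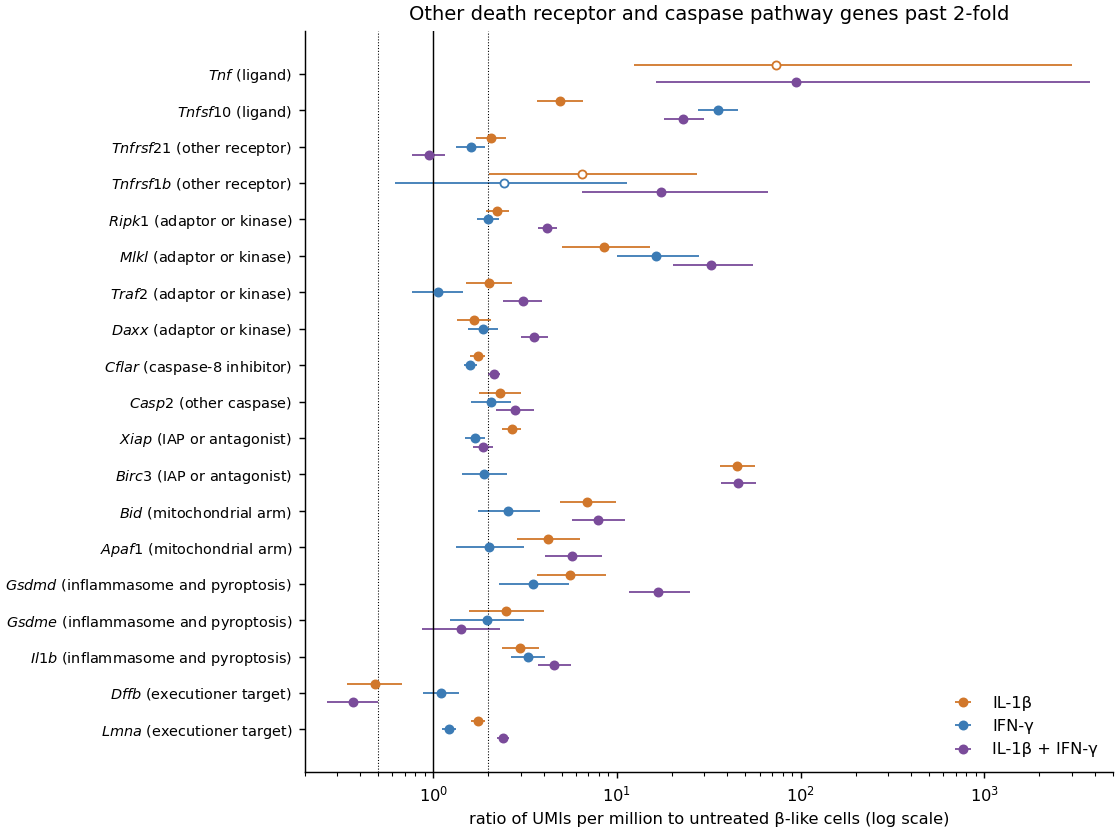
Ratio to untreated (log axis) in β-like cells for genes of the pathway list past 2-fold in at least 1 of the 3 comparisons, with 95% intervals of counting error, dotted lines at 2-fold and open points for under 50 UMIs. *Birc3* lies at 1.90 with IFN-γ and at 45 with IL-1β, whereas *Tnfsf10* and *Mlkl* are higher with IFN-γ than with IL-1β.

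In α-like cells 3 of 16 genes of the list were past 2-fold higher with IL-1β (*Tnfsf10* and *Birc3* among them), 4 of 20 under IFN-γ and 7 of 16 under both, beside 8.49%, 4.54% and 10.1% of all genes, and none was lower. The median log2 ratios were 0.32, 0.37 and 0.73 beside 0.02, 0.098 and -0.09 for all genes. In δ-like cells 3 of 10 were higher with IL-1β (*Tnfsf10* and *Birc3* among them), 3 of 13 with IFN-γ (*Tnfsf10*, *Ripk1* and *Mlkl*) and 9 of 13 with both, beside 9.37%, 3.74% and 13.8% of all genes, and *Birc6* was lower with both. The median log2 ratios were 0.57, 0.28 and 2.0 beside 0.08, -0.02 and -0.05. In both types some calls rest on few untreated UMIs and reached the minimum mainly through the treated library. Examples are *Tnfsf10* and *Mlkl* (3 and 3 untreated UMIs in α-like cells, 12 and 5 in δ-like cells). Such genes had to differ, so their calls add nothing to these counts, and their ratios also enter the medians. How many of the calls this concerns was not counted. Without hormone genes in the totals, α-like cells had 5 in place of 7 genes past 2-fold with both (*Daxx* among those lost). With IL-1β they had 4 in place of 3, and the added gene was lower. *Cflar* in δ-like cells fell under 2-fold with both.

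The genes whose pattern was most like that of each member were taken from 8145 genes over 12 profiles, the β-, α- and δ-like cells of the 4 libraries, which share libraries and depth. They were *Znrf1*, *Qars* and *Gadd45b* for *Fas* (Pearson's r 0.976 to 0.972), *Cdc42se2*, *Pnp* and *Gm16685* for *Tnfrsf1a* (0.980 to 0.969) and *Gpx1*, *Morc3* and *4930539E08Rik* for *Casp8* (0.960 to 0.936). For *Casp1* they were *Scarb2*, *B3gnt3* and *Supt5* (0.936 to 0.908), for *Casp4* *Defb1*, *Fmnl2* and *Cd40* (0.961 to 0.952) and for *Xaf1* *Rnf213*, *Psmb9* and *Irf9* (0.991 to 0.983). For *Casp12* the highest value was 0.732 (*Rab40c*), with almost no counts behind it. No member was among the 3 most like genes of another member.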

How the data were processed

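The deposited files hold raw UMI counts per gene and barcode made by the authors with Cell Ranger from 4 single-cell libraries, without normalization. The matrix headers name software version 3.0.0, the submitters' processing notes name the build mm10, and the sources used here do not give the annotation. The kit is version 3 in the paper's methods and version 2 in the labels. The 7 genes, the gene lists and the settings were chosen with earlier results of these data known.

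The limits on genes and mitochondrial UMIs per cell follow the study's methods. Doublets were met only by the upper gene limit, and no doublet caller was run. Cells of mixed hormones (218) and unassigned cells (180) were left out of the types. A non-endocrine name needed at least 3 markers of 1 list, and an endocrine cell with over 4 markers of a non-endocrine list was not named. UMIs were summed per library and cell type with scipy 1.17.1, numpy 2.4.6 and pandas 2.3.3 under Python 3.11.15. Intervals are exact at 95% (Poisson for levels, binomial for shares, conditional binomial for ratios), and the floor was 3 UMIs. A share of 0 is given not with its exact interval but with the limit of 3 cells of the total, which concerns cells with a UMI. For shares at equal depth, cells under 4000 UMIs were left out, which removed 48, 82, 66 and 36 β-like cells. The named genes are the 7 members, each gene of the pathway list past 2-fold in β-like cells against untreated, examples by role, and the 3 genes most like each member among those of at least 10 CPM on average. The alternatives were leaving out the upper gene limit, allowing 20% mitochondrial UMIs, totals without hormone genes, thinning, types from clusters (leidenalg 0.10.2), equal weight per cell, minimums of 20 or 100 UMIs and a fold of 1.5. The ratio and its interval were tested on simulated data. Some genes of the pathway list enter its counts but are not reported here by name.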

Additional observations from a re-analysis of the deposited data

Results flagged for a closer look

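Insulin-led barcodes above the mitochondrial limit take no part in the comparisons above. In the library with both cytokines, 112 such barcodes (median 1921 UMIs) held 35.2 CPM of *Fas* against 0.465 CPM in the 529 such barcodes of the untreated library. The other values with both cytokines and without treatment were 131 and 33.5 CPM for *Tnfrsf1a*, 22.6 and 2.79 for *Casp8*, 20.1 and 0 for *Casp4*, and 67.8 and 1.86 for *Xaf1*. The UMIs behind these levels were 14 and 1 for *Fas* and 52 and 72 for *Tnfrsf1a*. They were 9 and 6 for *Casp8*, 8 and 0 for *Casp4*, and 27 and 4 for *Xaf1*. These barcodes drew attention because the levels stood above the control library in data left out by a filter. *Casp1* had 2 UMIs with both cytokines and 0 without, and *Casp12* had none in either.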

How the results depend on the processing

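No paired analysis was possible because each condition had 1 library. Of 135 counts of members past 2-fold under the alternatives, 115 were within 1.5 times the count given above. In β-like cells with IFN-γ the count was 2 in place of 1 (*Casp1* added) without the upper gene limit and at a minimum of 20 UMIs. With both against IL-1β it was 2 without hormone genes in the totals and 3 at a fold of 1.5, in place of 1. In α-like cells with IL-1β it was 1 in place of 2 after thinning, with cluster types and at a minimum of 100 UMIs, and with IFN-γ 1 in place of 2 after thinning and at a minimum of 100 UMIs. With both against IL-1β it was 2 at a minimum of 20 UMIs and 3 at a fold of 1.5, in place of 1. In δ-like cells with IL-1β it was 2 in place of 0 without the upper gene limit, with cluster types and at a minimum of 20 UMIs, and 1 at the 20% mitochondrial limit, after thinning, with equal weights and at a fold of 1.5. With IFN-γ it was 2 in place of 1 after thinning, and with both against IFN-γ 1 in place of 2 at a minimum of 100 UMIs. The minimums, thinning and the lower fold act by construction on how many genes are counted, and the cause of the other shifts was not tested. With equal weights the log2 ratio of *Casp12* in β-like cells turned to -0.71 (both against untreated) and -1.28 (both against IFN-γ).

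Of the pathway list in β-like cells, 10 in place of 16 genes with IL-1β and 4 in place of 8 with IFN-γ were past 2-fold after thinning, and at a fold of 1.5 there were 18 with IFN-γ, and 14 in place of 6 and 21 in place of 12 for both against IL-1β and IFN-γ. Of all genes in β-like cells, 5208, 2553 and 4583 passed a fold of 1.5 with IL-1β, IFN-γ and both, in place of 2406, 599 and 2415, and 3480 and 4430 in place of 983 and 2148 for both against IL-1β and IFN-γ, while 920 in place of 599 passed with IFN-γ at a minimum of 20 UMIs. Against untreated, the counts of all genes in α-like cells (992, 393 and 1113) became 1730, 822 and 1996 at a minimum of 20 UMIs, 557, 210 and 626 at 100 UMIs and 2408, 1490 and 2383 at a fold of 1.5, and those with IL-1β and both became 653 and 552 after thinning. In δ-like cells (630, 265 and 926) they became 1401, 765 and 1980, then 277, 123 and 472, then 1466, 937 and 1739, and after thinning 356 and 513. Of 33 member ratios in β-like cells, 26 stayed within their interval without hormone genes in the totals and 27 of 29 after thinning, and of 62 ratios of the pathway list 39 and 44 did.

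Depth limits the low genes. The floor of 3 UMIs is 0.151 to 0.300 CPM in β-like cells, 1.16 to 3.14 in α-like and 2.22 to 5.50 in δ-like cells. The ratios of *Fas* and *Casp4* rest on 1 or 2 untreated UMIs. All 4 libraries come from 1 pool of islets, and a condition and its library cannot be told apart.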

Other observations

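Among β-like cells with both cytokines, *Casp4* was found in 42.3% (32.3% to 52.7%) of the 97 cells with a *Casp1* UMI and in 15.6% (13.6% to 17.8%) of the 1187 cells without one, with median depths of 13340 and 12029 UMIs. With IL-1β the shares were 28.9% (16.4% to 44.3%) of 45 cells and 7.27% (5.84% to 8.94%) of 1141 cells. After thinning to 4000 UMIs, 7 cells with both cytokines had UMIs of both caspases, where their separate shares give 3.01, and 3 cells with IL-1β, where they give 0.989. For *Fas* and *Casp4* with both cytokines the thinned count was 6 cells, where the separate shares give 13.1, and with IL-1β it was 9 cells, where they give 6.50. The cells of a condition come from 1 library, and these differences were not tested.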
